A study of Mus musculus with 9 samples.

Results

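Toll-like receptors (TLRs) and NOD receptors are sensors of microbial molecules and of molecules released from injured tissue. TLR2 works in pairs with TLR1 or TLR6 at the cell surface, TLR4 senses bacterial lipopolysaccharide, TLR3 senses double-stranded RNA, and NOD1 and NOD2 sense fragments of bacterial cell wall in the cytosol. MYD88 is the adaptor that most TLRs use, RIPK2 is the kinase through which NOD1 and NOD2 signal, and IRAK3 (IRAK-M) is a member of the IRAK family known to restrain TLR signalling. All of these routes lead to NF-kB, the transcription factor that TNF also activates, and synovial fibroblasts (SFs) of inflamed joints are known to carry several of the sensors.

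The 10 genes described here are Tlr1, Tlr2, Tlr3, Tlr4, Tlr6, Nod1, Nod2, Myd88, Ripk2 and Irak3. They were chosen by name, with earlier results of these data known, and all 10 were found among the 49548 genes of the expression tables. Expression was measured by 3′ mRNA sequencing in cultured SFs from ankle joints of mice on a CBA C57BL/6J background that were 8 weeks old. There were 3 libraries of wild-type (WT) SFs and 3 of hTNFtg SFs, both with no treatment by the labels. A further 3 were of hTNFtg SFs given infliximab, an anti-TNF antibody, at 1 µg/mL for 48 hours. The hTNFtg mice carry a human TNF transgene and develop destructive polyarthritis. For the cultures without infliximab the methods of the study describe vehicle, where the labels give none, and they call the replicates biological. The SFs were depleted of CD45+ cells at passage 1. The transgene is a human gene and was not read by the mouse gene table, so the genotype labels were not checked through it.

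Levels are given in normalized counts, the gene counts as the authors scaled them between libraries. The libraries held about 3829138 to 9015557 reads, apart from hTNFtg replicate 1, which held about 613349. The other 8 libraries were 6.24 to 14.7 times as deep, and 3 reads amounted to 18.7 normalized counts in hTNFtg replicate 1. The 10 fibroblast markers summed to 36042 to 52091 normalized counts per library, and none of them was at 0 in all libraries. The 16 macrophage and myeloid markers summed to 243, 1237 and 446 in WT replicates 1, 2 and 3, to 9459, 4461 and 7559 in hTNFtg, and to 5164, 3028 and 6066 with infliximab, and none of the 16 was at 0 in all libraries. Of these markers 13 of 16 were raised in hTNFtg SFs over WT SFs, against 3.35% of all genes tested, by the rule given below. In such bulk libraries, fewer cells of a type and less RNA per cell cannot be told apart.

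The promoters were read from RefSeq (GRCm38.p6, the assembly that mm10 names), as windows of 300 bases with 250 before and 50 after a gene start of RefSeq. Windows were at hand for 8 of the 10 genes, 12 windows in all, and the set of windows used here held none for Tlr4 and Ripk2. They were searched on both strands for an NF-kB motif (GGG, any 3 bases, then TTCC), an interferon-stimulated response element (ISRE, which is GAAA, any 2 bases, then GAAA) and an AP-1 motif (TGANTCA). The NF-kB letters were in 3 of the 12 windows, those of Tlr2, Tlr3 and Tlr6, against 5.56% of 32851 mouse windows of this length. These windows are shown because they carry the motif of the factor on which TLR, NOD and TNF signals converge, in 1 gene called raised in hTNFtg SFs and in 2 that were not. They are written 5′ to 3′ on the strand of the gene, with the match in capitals.
Tlr2 promoter, chr3:83841559-83841858, minus strand: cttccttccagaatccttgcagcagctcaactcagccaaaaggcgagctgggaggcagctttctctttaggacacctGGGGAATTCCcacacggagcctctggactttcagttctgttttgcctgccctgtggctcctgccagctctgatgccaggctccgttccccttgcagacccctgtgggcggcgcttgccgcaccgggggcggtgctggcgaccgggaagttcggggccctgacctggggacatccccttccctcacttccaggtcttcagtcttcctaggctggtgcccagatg
Tlr3 promoter, chr8:45410331-45410630, minus strand: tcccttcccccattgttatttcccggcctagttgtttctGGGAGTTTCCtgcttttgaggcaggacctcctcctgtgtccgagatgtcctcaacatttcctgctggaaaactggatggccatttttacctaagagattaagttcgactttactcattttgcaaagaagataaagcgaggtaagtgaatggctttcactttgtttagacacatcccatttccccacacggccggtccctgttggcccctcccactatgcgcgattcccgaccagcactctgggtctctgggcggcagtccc
Tlr6 promoter, chr5:64959999-64960298, minus strand: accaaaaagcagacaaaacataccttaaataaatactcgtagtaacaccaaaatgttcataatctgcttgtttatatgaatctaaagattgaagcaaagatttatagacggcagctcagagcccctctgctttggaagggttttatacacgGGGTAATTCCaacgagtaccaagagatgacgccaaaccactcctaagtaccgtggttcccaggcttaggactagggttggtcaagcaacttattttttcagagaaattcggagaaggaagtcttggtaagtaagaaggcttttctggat
Counted to the RefSeq start of each window, the match began 173 bases before it for Tlr2, 211 for Tlr3 and 99 for Tlr6. The ISRE letters were in 2 of the 12 windows, against 3.44% of all windows. They were found 40 bases before the RefSeq start for Myd88 and, as 2 overlapping matches, in the other Tlr6 window. The RefSeq starts of these Tlr2, Tlr3, Tlr6 and Myd88 windows lie inside the gene bounds of the expression tables, which are given with each gene below, and the windows of Tlr3 and Myd88 and the other Tlr6 window lie wholly inside them. The AP-1 letters were in 0 of the 12 windows, against 7.81% of all. Such matches describe the letters only.

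The comparison of hTNFtg with WT SFs asked which of these genes differ in SFs of arthritic joints. Tlr2 and Ripk2, a receptor and a kinase of the NOD route, were higher in hTNFtg SFs, about 3.96-fold and 2.99-fold, and the other receptors and Myd88 and Irak3 did not pass the test. By the rule of the study, a gene was called raised or lowered where its P before adjustment was under 0.05 and its change was 2-fold or more, here in a limma fit of log2(normalized count + 1). So called, 2 of the 10 genes were raised and 0 were lowered, against 3.35% raised and 3.04% lowered among all 28522 genes tested. None of the 10 genes had an adjusted p under 0.05, against 0.48% of all genes.

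Tlr2 (ENSMUSG00000027995, chr3:83836272-83841767) stood at 15, 4 and 9 normalized counts in WT replicates 1, 2 and 3, at 31, 40 and 37 in untreated hTNFtg, and at 9, 21 and 15 with infliximab. Every untreated hTNFtg library was above every WT library and above every infliximab library, and the WT and infliximab values overlapped. The value of 31 rests on 5 reads in the shallow hTNFtg replicate 1. In hTNFtg versus WT the log2 fold change was 1.99 (SE 0.61, 95% interval 0.65 to 3.32, n = 3 per group, limma with Benjamini-Hochberg adjusted p = 0.275). Leaving out each library in turn gave 1.54 to 2.38, and the gene stayed past the rule each time. The adjusted p ranged from 0.0216 to 0.731 over the alternative settings.

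Ripk2 (ENSMUSG00000041135, chr4:16122733-16163647) stood at 118, 148 and 70 normalized counts in WT, at 268, 378 and 329 in untreated hTNFtg, and at 218, 257 and 231 with infliximab. The 3 groups did not overlap. WT was lowest, infliximab-treated hTNFtg in the middle and untreated hTNFtg highest. The value of 268 rests on 43 reads in the shallow hTNFtg replicate 1. Its 95% counting interval of 193.8 to 360.7 spans all 3 infliximab values. For Ripk2 the log2 fold change in hTNFtg versus WT was 1.58 (SE 0.34, 95% interval 0.84 to 2.32, n = 3 per group, limma with Benjamini-Hochberg adjusted p = 0.08). It was 1.28 to 1.81 when each library was left out, past the rule each time, and the adjusted p ranged from 0.00561 to 0.511 over the alternative settings. Groups without overlap were found for 2 of the 10 genes in the higher direction (5.63% of all genes tested) and for 1, Tlr6, in the lower direction (5.8%).

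**Figure D1:**
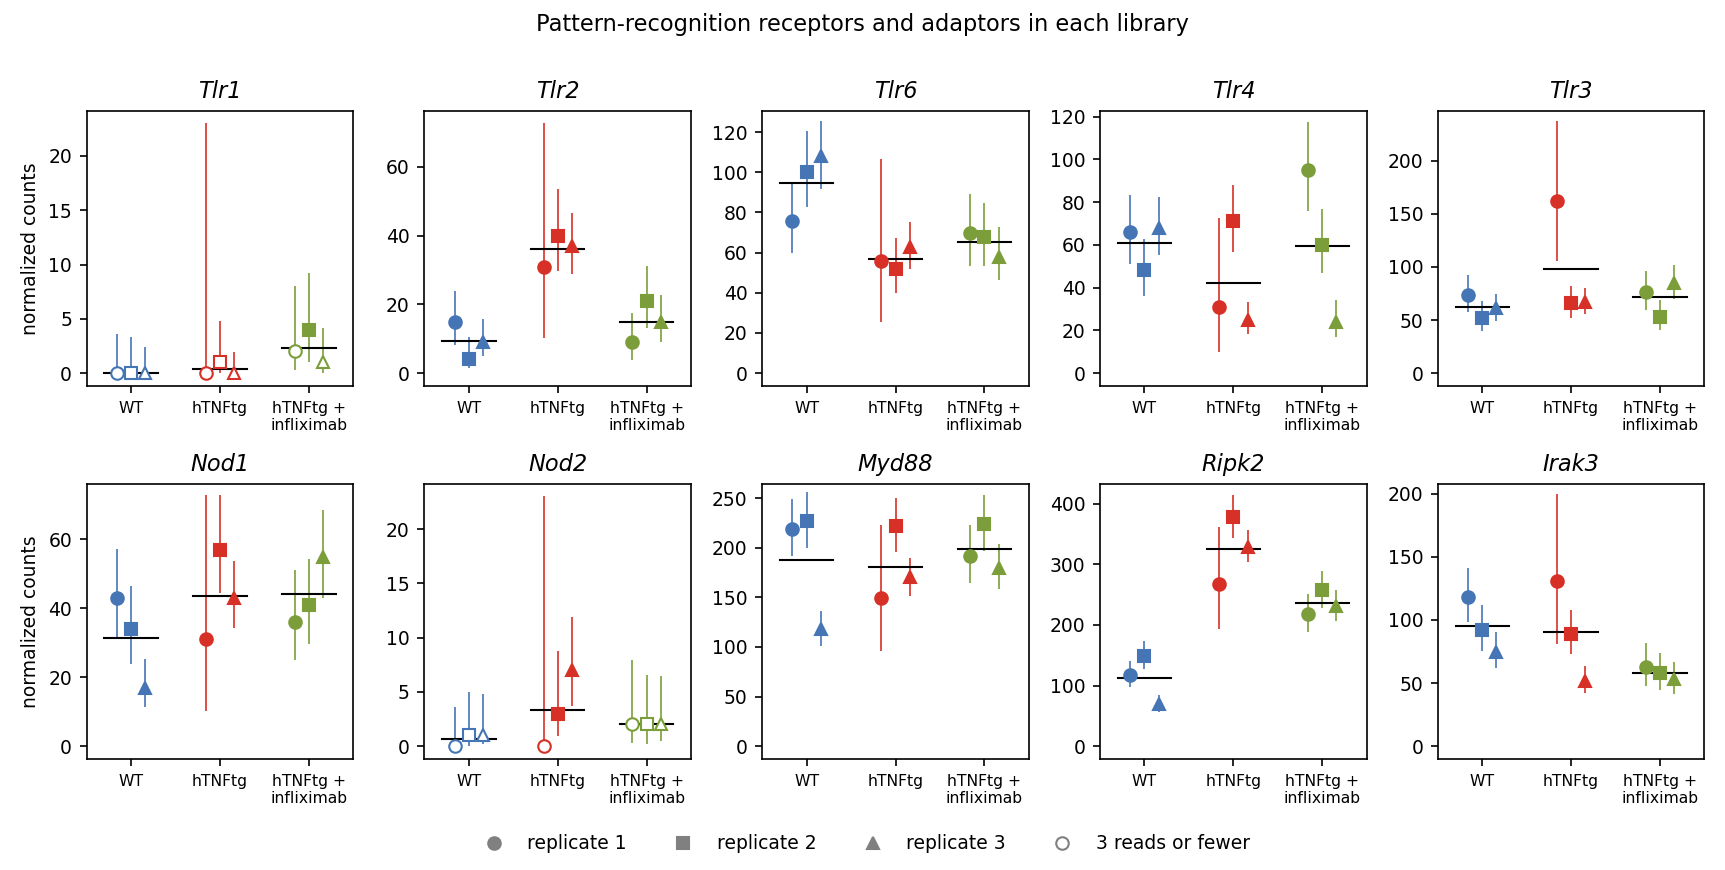
Normalized counts (vertical axis) of each of the 10 genes in the 9 libraries, by group, with a mark per replicate, an exact 95% Poisson interval of the reads as a thin line (counting error only), the group mean as a bar, and open marks for 3 reads or fewer. Tlr2 and Ripk2 sit higher in all 3 untreated hTNFtg libraries than in all 3 WT libraries, and the intervals are widest in hTNFtg replicate 1.

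Tlr6 (ENSMUSG00000051498, chr5:64952031-64960097), a partner of Tlr2, went the other way in level. It stood at 76, 100 and 108 normalized counts in WT, at 56, 52 and 63 in untreated hTNFtg and at 70, 68 and 58 with infliximab. Every library of hTNFtg SFs, treated or not, was below every WT library, while the hTNFtg groups overlapped each other. Its log2 fold change in hTNFtg versus WT was -0.71 (SE 0.33, 95% interval -1.43 to 0.01, n = 3 per group, limma with Benjamini-Hochberg adjusted p = 0.665) and did not pass the test. Tlr1 (ENSMUSG00000044827, chr5:64924679-64933563), the other partner, lies 18467 bases from Tlr6 and resembles it in sequence, so that reads could be split between the pair in ways the methods do not describe. It was at 0 in all 3 WT libraries, at 0, 1 and 0 in hTNFtg and at 2, 4 and 1 with infliximab, which amounts to 0, 1 and 7 reads per group. For the 0 in hTNFtg replicate 1, the floor of 3 reads stands at 18.7 normalized counts and the exact 95% Poisson limit at 23.

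Tlr4 (ENSMUSG00000039005, chr4:66827584-66930284), the lipopolysaccharide receptor, stood at 66, 48 and 68 normalized counts in WT, at 31, 71 and 25 in hTNFtg and at 95, 60 and 24 with infliximab. The groups overlapped, and hTNFtg replicate 2 was higher than every WT library while the other hTNFtg libraries were lower than every WT library. Between hTNFtg and WT the log2 fold change was -0.64 (SE 0.45, 95% interval -1.63 to 0.36, limma with Benjamini-Hochberg adjusted p = 0.726). Without hTNFtg replicate 2 it was -1.08 and past the rule, and with libraries weighted by quality it was 0.07. Tlr3 (ENSMUSG00000031639, chr8:45395665-45411080), the receptor for double-stranded RNA, stood at 74, 52 and 61 in WT, at 162, 66 and 67 in hTNFtg and at 76, 53 and 85 with infliximab. Only the shallow hTNFtg replicate 1, at 26 reads, was above the values of the other 8 libraries. Its log2 fold change in hTNFtg versus WT was 0.53 (SE 0.41, 95% interval -0.37 to 1.43), and 0.11 without that library.

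Nod1 (ENSMUSG00000038058, chr6:54923949-54972612) stood at 43, 34 and 17 normalized counts in WT, at 31, 57 and 43 in hTNFtg and at 36, 41 and 55 with infliximab. The 3 groups overlapped, with a log2 fold change in hTNFtg versus WT of 0.52 (95% interval -0.53 to 1.57). Nod2 (ENSMUSG00000055994, chr8:88647315-88688474) was near the limit of detection, at 0, 1 and 1 in WT, at 0, 3 and 7 in hTNFtg and at 2, 2 and 2 with infliximab. Summed over the groups this was 3, 17 and 7 reads. The ratio of reads per depth in hTNFtg versus WT was 6.32 (95% interval of counting error alone 1.83 to 33.7), and the groups overlapped because no read was found in hTNFtg replicate 1. Without that library, Nod2 was past the rule at these few reads. The kinase Ripk2 was raised in hTNFtg SFs while the NOD receptors that it serves were not past the test.

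Myd88 (ENSMUSG00000032508, chr9:119335934-119341411) stood at 219, 227 and 118 normalized counts in WT, at 149, 222 and 170 in hTNFtg and at 192, 224 and 180 with infliximab. The groups overlapped fully, and the log2 fold change in hTNFtg versus WT was -0.02 (95% interval -0.77 to 0.73). The gene overlaps Acaa1a on the opposite strand over 1736 bases, and Acaa1a stood at 474 to 1201. The methods do not say whether reads were counted by strand, so reads of the pair may be mixed. Irak3 (ENSMUSG00000020227, chr10:120141648-120202130) stood at 118, 92 and 75 in WT, at 131, 89 and 52 in hTNFtg and at 63, 58 and 53 with infliximab, and overlaps Tmbim4 on the opposite strand over 541 bases. The untreated groups overlapped, with a log2 fold change of -0.14 (SE 0.39).

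**Figure D2:**
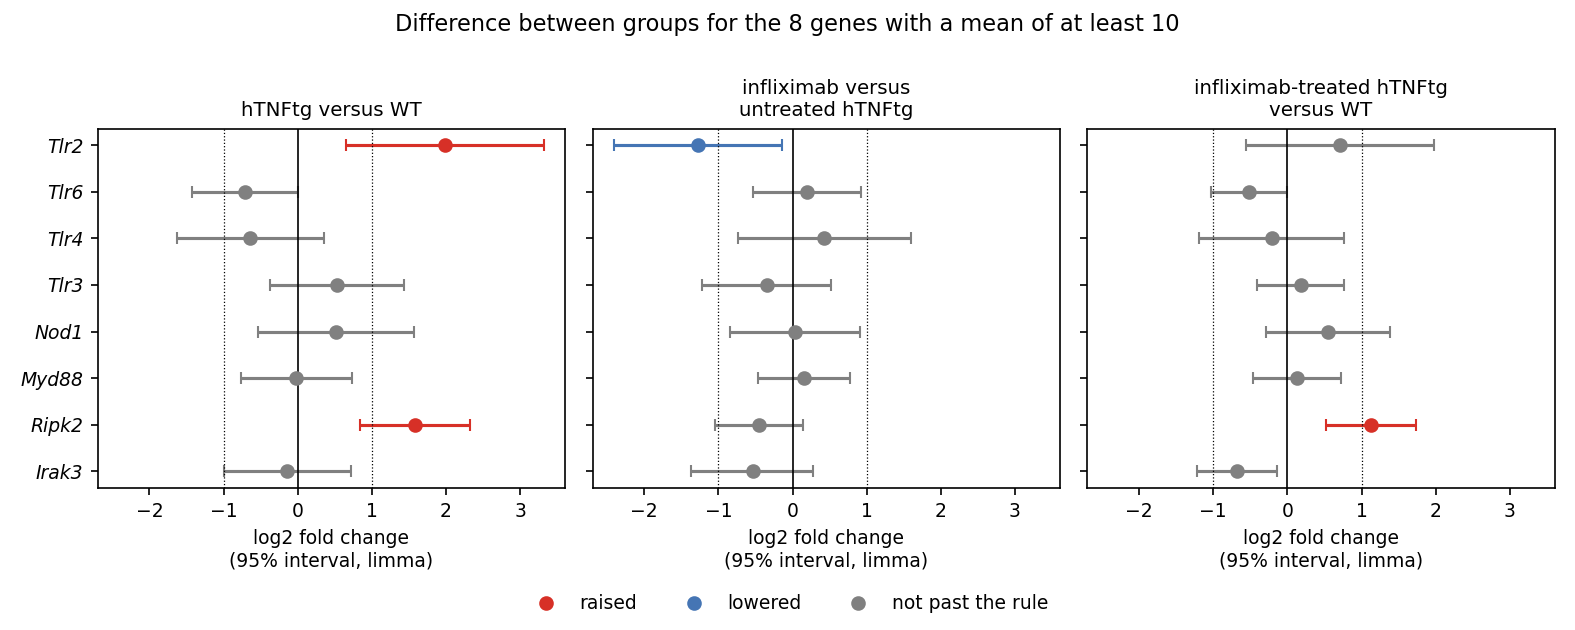
Log2 fold change (horizontal axis) with its 95% interval from limma for the 8 genes with a mean of at least 10 normalized counts, in the 3 comparisons, with dotted lines at a log2 fold change of 1 in either direction. Tlr2 and Ripk2 lie beyond 1 in hTNFtg versus WT (1.99 and 1.58), Tlr2 lies at -1.27 with infliximab, and Ripk2 lies at 1.13 in infliximab-treated hTNFtg versus WT.

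The comparison of infliximab-treated with untreated hTNFtg SFs asked which of these genes differ after infliximab. It shares the untreated hTNFtg libraries with the comparison above, so the values of both are set side by side and not related to each other. The mouse Tnf gene, outside the lists, stood at 1 to 7 normalized counts in WT. It was at 24 to 25 in untreated hTNFtg, with as few as 4 reads in a library, and at 10 to 29 with infliximab. Whether mouse TNF was neutralized was not tested. Tlr2 was lower with infliximab, about 2.42-fold, and was the gene past the rule among the 10 (0 raised, 1 lowered, against 1.49% raised and 0.936% lowered among all 28540 genes tested). Its log2 fold change was -1.27 (SE 0.53, 95% interval -2.41 to -0.14, n = 3 per group, limma with Benjamini-Hochberg adjusted p = 0.803). The call was lost without hTNFtg replicate 2 (-1.20), hTNFtg replicate 3 (-1.25), infliximab replicate 1 (-0.97) or infliximab replicate 3 (-1.31), with the direction kept, and the adjusted p of Tlr2 ranged from 0.115 to 0.914 over the alternative settings. No gene of the whole table had an adjusted p under 0.05 in this limma fit, against 1026 at an unadjusted P under 0.05 and 165 by adjusted p in edgeR on approximate reads.

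Ripk2 was lower in all 3 infliximab libraries than in all 3 untreated libraries. The closest values were 257 in infliximab replicate 2 and 268, on 43 reads, in the shallow hTNFtg replicate 1. The log2 fold change of Ripk2 was -0.45 (SE 0.27, 95% interval -1.04 to 0.14, n = 3 per group, limma with Benjamini-Hochberg adjusted p = 0.803), which did not pass the test. Tlr2 and Ripk2 were the 2 of the 10 genes whose treated libraries lay wholly below the untreated ones (3.44% of all genes tested), and 0 lay wholly above (3.99%). Irak3 stood at -0.54 (95% interval -1.37 to 0.28), and its treated libraries overlapped the untreated ones. Tlr3 (-0.35), Nod1 (0.03), Myd88 (0.15), Tlr6 (0.19) and Tlr4 (0.43) were not past the rule, and their treated and untreated libraries overlapped. Their 95% intervals reached from -1.22 for Tlr3 to 1.60 for Tlr4. The reads of Tlr1 were 7 with infliximab and 1 without, a ratio of 7.18 per depth (95% counting interval 0.922 to 323.6), and those of Nod2 were 7 and 17, a ratio of 0.422 (0.148 to 1.07).

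**Figure D3:**
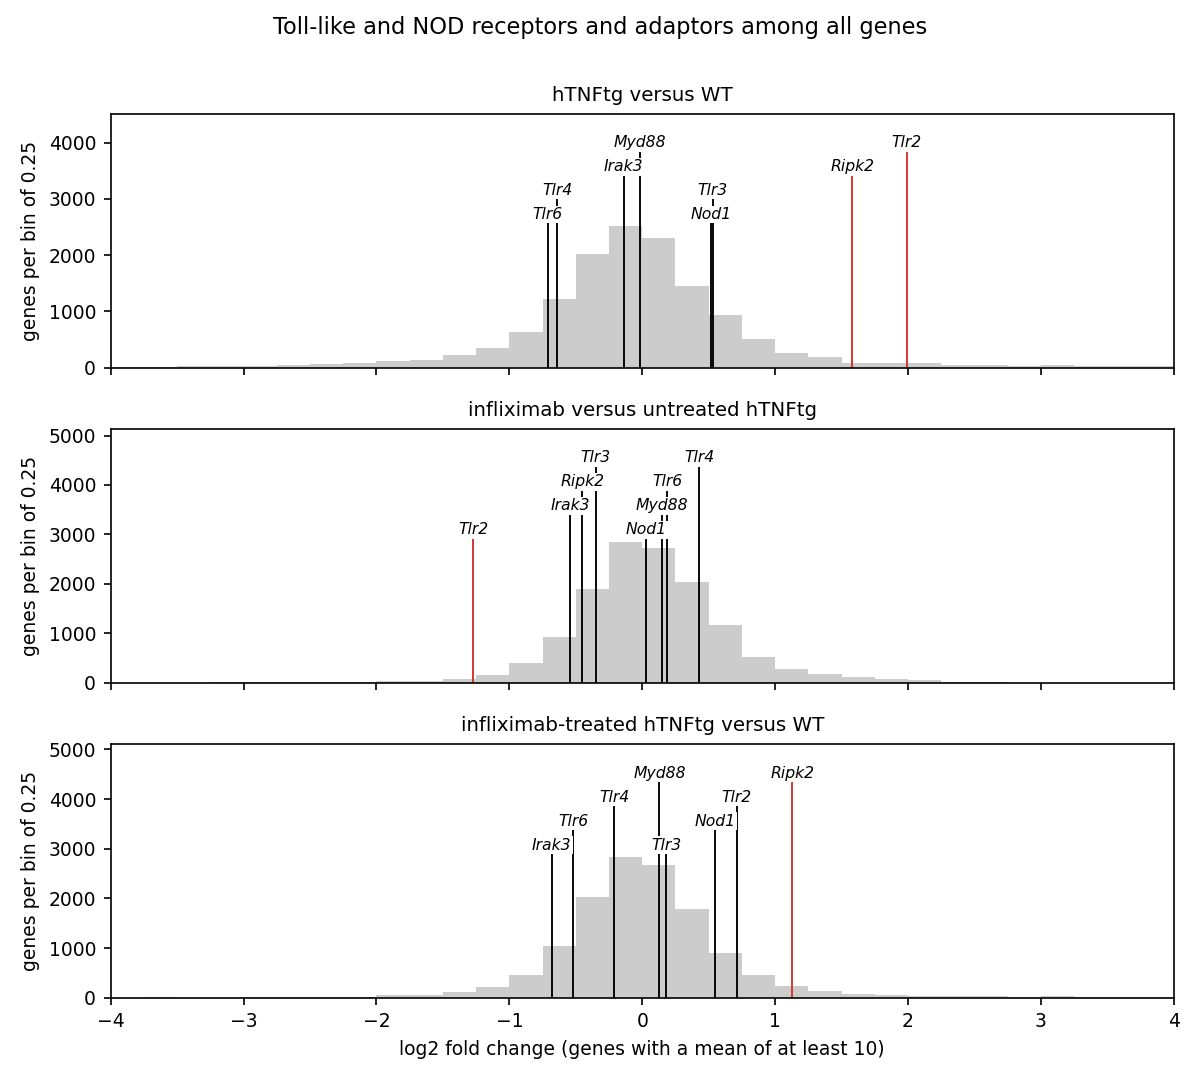
Number of genes per bin of 0.25 (vertical axis) by log2 fold change (horizontal axis) for all genes with a mean of at least 10 normalized counts, with lines for the 8 receptors and adaptors that reach this mean, red where past the rule. Most lines lie in the middle of the distribution of all genes, Tlr2 lies in its tails in the upper panels (1.99 and -1.27), and Ripk2 lies in its upper tail in both comparisons with WT (1.58 and 1.13).

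Infliximab-treated hTNFtg SFs were also compared with WT SFs, to see which genes stood apart from WT after treatment. Ripk2 was raised, about 2.18-fold, whereas Tlr2 was not past the test. The difference for Ripk2 was 1.13 on the log2 scale (SE 0.27, 95% interval 0.52 to 1.73, n = 3 per group, limma with Benjamini-Hochberg adjusted p = 0.107). Without WT replicate 3, the library with the lowest Ripk2, it was 0.82 and no longer past the rule, and with libraries weighted by quality it was 1.00 and just under the limit. Over the alternative settings the adjusted p of Ripk2 ranged from 0.00087 (edgeR on approximate reads) to 0.407 (replicate block), and it was also under 0.05 with the filter on a mean of 10 (0.0453) and with robust eBayes (0.00133). For Tlr2 it was 0.71 (SE 0.57, 95% interval -0.56 to 1.98). The fitted value of Tlr1 also passed the rule, which makes 2 of the 10 genes raised and 0 lowered (3.86% and 2.95% of all 28243 genes tested, with 0 of the 10 and 0.74% of all genes under an adjusted p of 0.05). It rests on 7 reads against 0, a ratio per depth with a lower 95% limit of counting error of 1.65, and 2 of the 3 treated libraries hold 3 reads or fewer. With the filter on a mean of 10 only Ripk2 was left.

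Irak3 and Tlr6 were lower in all 3 infliximab libraries than in all 3 WT libraries (2 of the 10 genes, against 7.07% of all genes tested), and neither passed the rule, since the size was under 1 on the log2 scale. On the log2 scale the difference was -0.68 for Irak3 (SE 0.24, n = 3 per group, limma with Benjamini-Hochberg adjusted p = 0.279) and -0.52 for Tlr6 (SE 0.23, adjusted p = 0.409). Ripk2, Tlr1 and Nod2 lay wholly above WT (3 of the 10 genes, against 7.14%), the last of them at 2 normalized counts in every treated library against 0 to 1. For Nod2 every library of both groups held 3 reads or fewer, and the ratio of 7 to 3 reads per depth has a 95% counting interval of 0.609 to 16, which includes 1. Nod1 (0.55), Tlr3 (0.18), Myd88 (0.13) and Tlr4 (-0.21) overlapped WT and were not past the rule. Over the 8 genes with a mean of at least 10, the median log2 fold change was 0.25 in hTNFtg versus WT, -0.16 with infliximab and 0.16 in infliximab-treated hTNFtg versus WT. Over all genes with such a mean, the medians were -0.07, 0.03 and -0.02.

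Macrophages carry Tlr2 and Ripk2 as well, and macrophage and myeloid markers moved with the genotype. With infliximab 14 of the 16 markers were lower and 2 were higher (median of the 16 on the log2 scale -0.37), beside the lower Tlr2. Of these 0 were past the rule as raised and 2 as lowered (0.936% of all genes tested), C1qb (-1.13) and Itgam (-1.33), and the treated libraries of Itgam lay wholly below the untreated ones. In infliximab-treated hTNFtg versus WT SFs 14 of 16 were raised, against 3.86% of all genes tested. Within the untreated hTNFtg group the Tlr2 values of 31, 40 and 37 normalized counts have 95% counting intervals of 10.1 to 72.7, 29.6 to 53.5 and 28.7 to 46.6, so no order by marker sum can be read from them. For Ripk2 the values of 268, 378 and 329 stood at marker sums of 9459, 4461 and 7559. Their counting intervals were 193.8 to 360.7, 343.2 to 414.5 and 303.4 to 355.8, which overlap. Of the 6 neutrophil markers, Ly6g and Ltf were at 0 in all libraries, and Camp, an antimicrobial peptide, was at 9 to 20 in WT, 41 to 104 in hTNFtg and 19 to 44 with infliximab (log2 fold change 2.28 in hTNFtg versus WT and -1.18 with infliximab, both past the rule). The neutrophil list summed to 704 to 1039 in WT, 560 to 1040 in hTNFtg and 639 to 911 with infliximab, nearly all of it Elane, and the 6 endothelial markers to 2 to 12 in all libraries. The part of macrophages or other myeloid cells in the differences between groups was not tested.

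**Figure D4:**
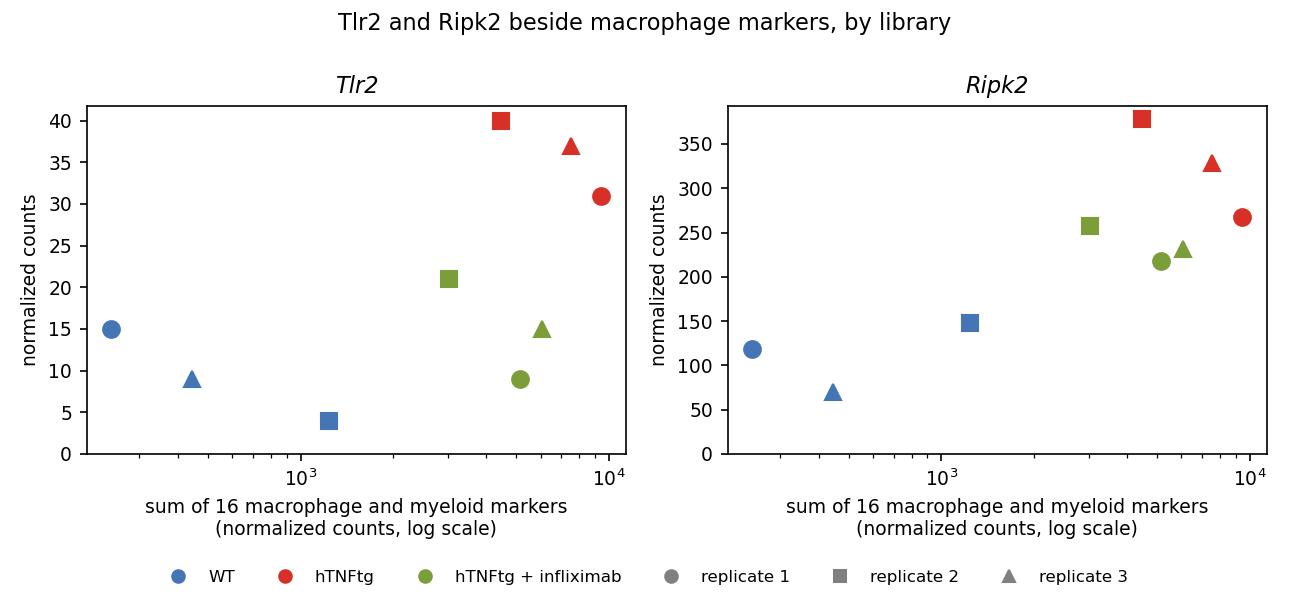
Normalized counts of Tlr2 and Ripk2 (vertical axes) against the sum of 16 macrophage and myeloid markers (horizontal axis, normalized counts on a log scale), with a mark per library, coloured by group and shaped by replicate. The WT libraries lie at sums of 243 to 1237 and the hTNFtg libraries at 3028 to 9459.

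The genes with the pattern most like that of Tlr2 over the 9 libraries were Mapk6, Npy1r and Bdkrb1, with a root mean square difference of 0.41, 0.42 and 0.43 in centred log2 values among 13599 genes with a mean of at least 10 (median of all 1.09). Mapk6, an atypical MAP kinase, stood at 22 to 46 normalized counts in WT, 81 to 101 in hTNFtg and 34 to 45 with infliximab. Bdkrb1, a bradykinin receptor, stood at 4 to 14, 25 to 37 and 16 to 27. For Ripk2 they were Stac2, Akr1b8 and Rnf19b, with differences of 0.22, 0.24 and 0.24 (median of all 0.88). Rnf19b, a ubiquitin ligase, stood at 57 to 84 in WT, 199 to 284 in hTNFtg and 129 to 188 with infliximab. These genes share libraries and depth with Tlr2 and Ripk2, and the likeness is a description.

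Other genes of the TLR and NOD pathways were taken from 6 lists that hold 87 genes. The lists were chosen with earlier results of these data known, so the shares of all genes beside them are descriptions. Between hTNFtg and WT SFs 19 of the 84 tested were raised and 1 was lowered, against 3.35% and 3.04% of all genes tested, with a median log2 fold change of 0.20 over those with a mean of at least 10. The counts of the single lists that follow stand against the same shares. Among receptors outside the 10 genes, Tlr13, a sensor of bacterial ribosomal RNA, rose from 0 to 5 normalized counts in WT to 9 to 51 in hTNFtg, and Tlr7 was the other of 2 raised among 6. Of 9 co-receptors and chaperones 3 were raised, namely Cd14, which hands lipopolysaccharide to TLR4, from 4 to 13 in WT to 25 to 125 in hTNFtg, Cd180, a TLR-like surface protein, from 1 to 3 in WT to 10 to 31 in hTNFtg, and Cd36. Cd14, Cd180 and Tlr13 are also made by macrophages, whose markers moved with them as above. Tlr7 and Cd36, like Traf3, Irak2, Vcan, Card9, Tnip1 and Tollip below and C1qb, Itgam and Camp above, were named after their values were seen.

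Of 24 adaptors, IRAK and TRAF family members and kinases, 2 were raised (Traf3 and Irak2) and 1 was lowered. The lowered gene was Peli2, a ubiquitin ligase that acts on IRAK proteins, at 114 to 244 normalized counts in WT and 28 to 68 in hTNFtg (log2 fold change -1.93, n = 3 per group, limma with Benjamini-Hochberg adjusted p = 0.101). Of 13 brakes on TLR and NOD signalling 6 were raised, among them Nfkbia, the inhibitor that holds NF-kB in the cytosol, from 267 to 319 in WT to 953 to 1714 in hTNFtg (log2 fold change 2.12, limma with Benjamini-Hochberg adjusted p = 0.0148). Tnfaip3 (A20), which removes ubiquitin chains from RIPK2 and other carriers, rose from 0 to 3 in WT to 14 to 50. The list did not move one way, with 7 genes higher, 6 lower and a median of 0.07. Tnip1, a partner of A20, was at 1611 to 1881 in WT and 803 to 1016 in hTNFtg (-0.99, just under the size the rule asks for), and Tollip, which restrains IRAK signalling, at 497 to 733 and 237 to 453 (-0.72), both without overlap and not past the rule. Irak3, the brake among the 10 genes, was at a log2 fold change of -0.14. Of 21 NOD-like receptors and carriers of their signals 4 were raised, among them the inflammasome protease Casp1, from 2 to 11 in WT to 27 to 112 in hTNFtg, and the receptor of bacterial secretion proteins Naip2, from 0 to 6 in WT to 17 to 37 in hTNFtg. Macrophages also make Casp1 and Naip2, and their markers moved with these genes too. Of 11 endogenous ligands reported for TLR2 and TLR4, Saa3 and Vcan were raised, and Saa3, an acute-phase protein, went from 15 to 23 normalized counts in WT to 2073 to 4933.

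With infliximab 2 of the 84 other pathway genes were raised and 2 were lowered. The median log2 fold change was -0.02 over those with a mean of at least 10. Among all genes tested 1.49% were raised and 0.936% lowered, so that these counts lie near the share of all genes. The lowered genes were Saa3, at 329 to 822 normalized counts after treatment (log2 fold change -2.75, n = 3 per group, limma with Benjamini-Hochberg adjusted p = 0.165), and Tnfaip3, at 5 to 11 (-1.52). The raised genes were Socs1, an inhibitor of cytokine signalling that stood at 6 to 22 in untreated and 38 to 53 in treated SFs (1.62), and Card9, at 10 reads against 1. In infliximab-treated hTNFtg versus WT SFs 18 of 83 were raised and 1, Peli2 (-1.31), was lowered, against 3.86% and 2.95% of all genes tested. With the filter on a mean of 10, 9 other pathway genes were past the rule in place of 19. Dusp1, a phosphatase that turns off MAP kinases, stood at 115 to 240 normalized counts against 27 to 73 in WT (2.01), and Vcan, a matrix proteoglycan, at 449 to 629 against 157 to 209 (1.57). The receptor Nlrc3, at 23 to 34 against 7 to 11, and the IL-33 receptor Il1rl1 (1.22), together with Saa3 (4.65), Casp1 (2.11), Cd14 (2.10) and Nfkbia (1.27), were also raised.

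**Figure D5:**
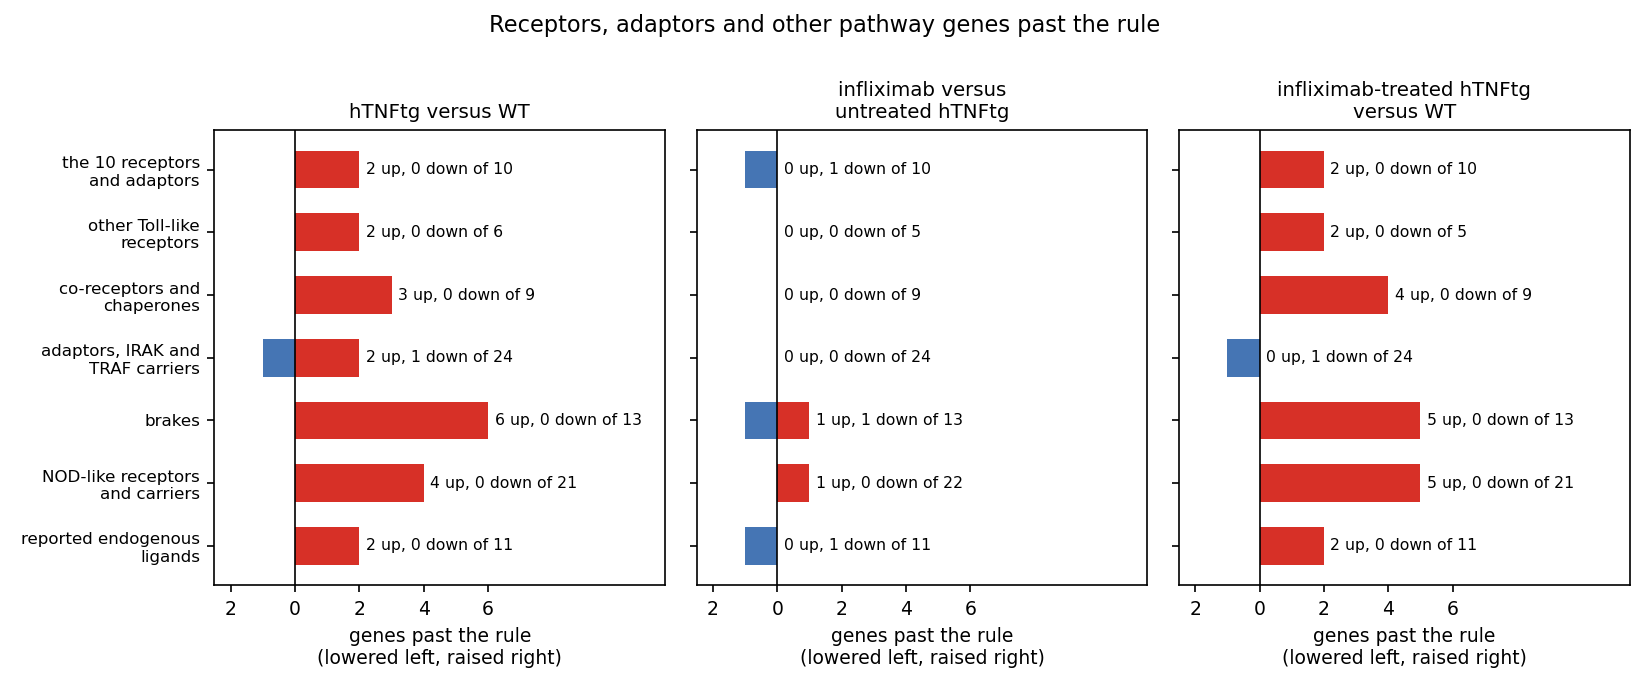
Number of genes past the rule (horizontal axis, lowered to the left and raised to the right) among the 10 receptors and adaptors and in 6 lists of other pathway genes (vertical axis), in the 3 comparisons, with the number tested. Among the brakes 6 of 13 are raised in hTNFtg versus WT, against 3.35% of all genes tested. In infliximab-treated hTNFtg versus WT 5 of 13 brakes are raised, against 3.86%. There 5 of 21 NOD-like receptors and carriers and 4 of 9 co-receptors are raised too, beside 14 of 16 macrophage and myeloid markers. Few genes pass in either direction with infliximab.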

How the data were processed

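The libraries were made with the QuantSeq 3′ kit for Ion Torrent from RNA with an integrity number above 7. By the methods and the submitters' processing notes, reads were mapped to mm10 with TopHat2 and then Bowtie2, counted per gene with GenomicRanges and normalized with DESeq through metaseqR (versions not given in the sources used here). The values deposited by the authors are a score, namely counts scaled by 1 factor for each library and given as whole numbers. Those of hTNFtg replicate 1 form a signal from which the whole reads behind the deposited values could be recovered. What 1 read was worth in each library was estimated from how often each whole number occurred. Reads of the other 8 libraries are approximate, and intervals and floors from reads cover counting error only. No depth in reads is given in the tables. The authors' columns of p-values and fold changes for their own comparisons were not used, nor were 24 columns of log2 and further normalized values. The 3 untreated hTNFtg columns were identical in both tables and were used once.

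Each comparison of 3 against 3 libraries was fitted with limma 3.58.1 (lmFit, eBayes with trend) in R 4.3.3 on log2(normalized count + 1) two-sided, over the genes with a value above 0 in any of the 6 libraries. Fold changes are on this scale, which understates the change of low genes. A gene passed the rule of the study where its P before adjustment was under 0.05 and its change was 2-fold or more, and Benjamini-Hochberg adjustment ran over all genes tested. The script was tested on simulated data. For Tlr1 and Nod2, with few reads, read totals are given in place of fitted values. The alternatives were pseudocounts of 5 and 0.5, a filter on a mean of 10, median-ratio and quantile scaling, quality weights, robust eBayes, all 9 libraries in 1 fit, the replicate number as a block, edgeR 4.0.16 on approximate reads and leaving out each library. Reads, marker sums and promoter windows were handled in Python 3.11.15.

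The members and lists were chosen with earlier results of these data known. All 10 genes are named throughout. Other pathway genes are named when past the rule with a mean of at least 10 over the 6 libraries, at most 8 per direction and comparison, by size of change, and the 3 genes of most similar pattern are named for Tlr2 and Ripk2. The lymphocyte marker list is not reported here.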

Additional observations from a re-analysis of the deposited data

How the results depend on the processing

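Tlr2 and Ripk2 stayed past the rule in hTNFtg versus WT SFs under all 10 alternative settings and without each library in turn. Of 384 alternative values of the 8 fitted genes, 358 kept their direction and their side of the rule, 6 lost the call, 1 gained it and 19 changed sign, all of the last for genes not past the rule. The cause of the shifts below was not tested. The count of the 10 genes past the rule was 1 in place of 2 in infliximab-treated hTNFtg versus WT with a pseudocount of 5, the filter on a mean of 10 or quality weights, and 1 to 2 without single libraries. With infliximab it was 2 in place of 1 with all 9 libraries in 1 fit, through Tlr1, and 0 to 1 without single libraries. Other pathway genes past the rule were 9 in place of 19 in infliximab-treated hTNFtg versus WT with the filter and 2 in place of 4 with infliximab at a pseudocount of 5.

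Signs changed with quality weights for Myd88 (0.14 in hTNFtg versus WT and -0.07 with infliximab), Nod1 (-0.33 with infliximab) and Tlr4 (0.07 in hTNFtg versus WT, -0.16 with infliximab and 0.00 in infliximab-treated hTNFtg versus WT), and with edgeR for Nod1 (-0.02 with infliximab). Without single libraries, Irak3 ranged from -0.45 to 0.21 and Myd88 from -0.32 to 0.14 in hTNFtg versus WT. In infliximab-treated hTNFtg versus WT, Myd88 ranged from -0.17 to 0.30 and Tlr4 from -0.64 to 0.33. With infliximab, Nod1 ranged from -0.19 to 0.24, Tlr3 from -0.57 to 0.07 and Tlr4 from 0.00 to 0.97.

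Over all genes, those past the rule in hTNFtg versus WT were 1823, 1183 with the filter and 3540 with quality weights. In infliximab-treated hTNFtg versus WT they were 1923, 1057 at a pseudocount of 5 and 1056 with the filter. With infliximab they were 693, 351 at a pseudocount of 5, 314 with the filter, 2125 with quality weights, 1229 with edgeR and 418 to 1411 without single libraries. Genes with an adjusted p under 0.05 in hTNFtg versus WT were 137, 1004 with quality weights, 461 with robust eBayes, 381 with all 9 libraries, 923 with edgeR and 1 to 44 without single libraries. In infliximab-treated hTNFtg versus WT they were 209, 488 with the filter, 378 with quality weights, 1182 with robust eBayes, 69 with all 9 libraries, 1321 with edgeR and 0 to 1 without single libraries. With infliximab they were 0, 65 with quality weights, 3 with robust eBayes, 3 with all 9 libraries and 165 with edgeR.

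Replicate numbers are shared by the groups. The deviations of same-numbered libraries correlated from -0.14 to 0.35 in hTNFtg versus WT and from 0.07 to 0.27 with infliximab. In infliximab-treated hTNFtg versus WT they correlated from -0.15 to 0.10. The best match bore the same number for replicates 1 and 3 in hTNFtg versus WT and for 2 and 3 with infliximab. In infliximab-treated hTNFtg versus WT it did so for replicate 1. These values do not settle whether the numbers pair the samples, and the main fits left the samples unpaired. With the replicate number as a block, 2 of the 10 genes were past the rule with infliximab (Tlr2, and Tlr1 at few reads), and the genes with an adjusted p under 0.05 were 0 in hTNFtg versus WT and 0 in infliximab-treated hTNFtg versus WT.

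Depth limits Tlr1, above 3 reads only in infliximab replicate 2, and Nod2, above 3 reads only in hTNFtg replicates 2 and 3. It limits hTNFtg replicate 1 in particular, where Tlr2 rests on 5 reads.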
